A study of Mus musculus with 24 samples.

Results

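Immediate early genes and the heat shock genes that accompany tissue dissociation were followed in sorted mouse colon fibroblasts. The set was a list of 36 gene symbols, taken as written. It was not selected by a measured difference, but genes and lists were chosen with earlier results of these data known. A gene counted as measured where a probe set of the array was annotated to that gene alone, and the brightest such probe set stood for it. In this way 34 of the 36 genes were measured, among 30827 genes on the array. Junb, an AP-1 subunit, was not analysed here because its probe set was shared with Prdx2. Hspa1b was not analysed here because its probe set was shared with Hspa1a. The Hspa1a value comes from another probe set, and since the 2 heat shock genes are near-identical copies it is uncertain which of them it reads.

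The cells came from the colon and lay in the Epcam-negative, CD45-negative, CD31-negative, gp38-positive gate, where gp38 is podoplanin, a fibroblast surface protein. All mice carried Villincre-ERT2-ZsGreen, a tamoxifen-inducible Cre that the Villin promoter drives in gut epithelium, so that deletion is directed to epithelial cells and not to the fibroblasts measured. WT arrays (n = 7) had intact Ihh and Apc (IhhWT-ApcWT), ApcKO arrays (n = 8) had lost Apc alone (IhhWT-ApcKO), and IhhKO_ApcKO arrays (n = 9) had lost both (IhhKO-ApcKO). Ihh encodes Indian hedgehog, an epithelial signal received by fibroblasts, and Apc encodes a brake on Wnt signalling. The sources used here do not give the age of the mice, the time after induction or whether each array was 1 mouse, and p-values therefore measure only the spread between these samples. Each array was hybridised with material amplified from 2 ng of RNA. Values are log2 array signals, and 1 unit is a 2-fold difference. A probe set's brightness also depends on its probes, so levels were compared between arrays for 1 gene and not between genes as amounts.

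Immediate early genes are switched on within minutes of a growth factor, a cytokine or a stress, from factors already present in the cell, with no new protein needed. Serum response factor with its ETS partners acts at the CArG box, CREB family factors act at the cyclic AMP response element, and heat shock factor acts at heat shock elements. The first products include the AP-1 subunits of the Fos and Jun families, the Egr and Nr4a transcription factors and, as brakes on the same signals, dual specificity phosphatases and the RNA-decay factor Zfp36. Enzymatic digestion and sorting of a tissue are known to raise the same genes in freshly isolated cells. No array of undissociated tissue was analysed here, so the data hold no level from before isolation.

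The sequence around these response elements was read from RefSeq promoters of assembly GRCm38.p6, which held 30 of the 34 measured genes. The 250 bases before each gene start were searched on both strands for the CArG box, for TGACGTCA (the cyclic AMP response element), for TGANTCA (an AP-1 site) and for GAANNTTC and TTCNNGAA (both arrangements of a heat shock half-site pair). The CArG box was found in 3 of the 30 genes (Dusp5, Egr2 and Zfp36), against 1.62% of the 27025 genes with an entry. The element TGACGTCA was found in 4 (Btg2, Dusp1, Maff and Ppp1r15a), against 1.77% of genes. GAANNTTC was found in 4 (Fosl2, Hspa1a, Hspb1 and Jun), against 7.73%, and TTCNNGAA in 1 (Egr2), against 8.11%. TGANTCA was found in none of the 30, against 7.82% of genes. A match is a description of the letters in this window and not a binding site, and a window without one says nothing about the factor.

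The windows below are shown because they carry the elements named above. Each has a match in capitals with neighbouring bases in lower case, on the strand of the gene, 5′ to 3′. The first 3 hold a CArG box, the next 4 hold TGACGTCA and the last 2 hold GAANNTTC. In the Dusp5 window the lower-case bases after the capitals are another CArG box. It is in capitals in the whole upstream window further on. The Egr2 match lay 72 bases before a gene start, that of Zfp36 58 bases before, and that of Ppp1r15a 12 bases before.
Egr2, chr10:67537787-67537816, + strand: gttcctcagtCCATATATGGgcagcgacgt
Zfp36, chr7:28379267-28379296, - strand: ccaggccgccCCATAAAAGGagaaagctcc
Dusp5, chr19:53529053-53529082, + strand: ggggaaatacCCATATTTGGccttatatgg
Btg2, chr1:134079304-134079331, - strand: ttcccaataaTGACGTCAgtgagcgatg
Maff, chr15:79347481-79347508, + strand: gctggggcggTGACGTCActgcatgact
Dusp1, chr17:26508598-26508625, - strand: gtagggcgggTGACGTCAccgcccggtc
Ppp1r15a, chr7:45526269-45526290, - strand: gcctctccggTGACGTCAgcac
Hspa1a, chr17:34972243-34972270, - strand: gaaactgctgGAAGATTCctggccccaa
Hspb1, chr5:135887812-135887839, + strand: gatgggggcaGAACCTTCctggccccgc

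Whole upstream windows of 250 bases are shown for 2 genes that correlated across all 24 arrays and within WT and IhhKO_ApcKO, though not within ApcKO, as described further on. Dusp5 held 2 CArG boxes in direct succession, which started 82 and 72 bases before the gene start and are in capitals. Gadd45b, the gene that followed the rest of the set most closely, held none of the 5 motifs.
Dusp5, chr19:53528895-53529144, + strand: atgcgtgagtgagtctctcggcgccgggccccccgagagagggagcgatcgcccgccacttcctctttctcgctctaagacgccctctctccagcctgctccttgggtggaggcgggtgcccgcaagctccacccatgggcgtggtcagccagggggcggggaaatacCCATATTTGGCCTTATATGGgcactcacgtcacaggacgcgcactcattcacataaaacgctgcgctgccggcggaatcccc
Gadd45b, chr10:80929841-80930090, + strand: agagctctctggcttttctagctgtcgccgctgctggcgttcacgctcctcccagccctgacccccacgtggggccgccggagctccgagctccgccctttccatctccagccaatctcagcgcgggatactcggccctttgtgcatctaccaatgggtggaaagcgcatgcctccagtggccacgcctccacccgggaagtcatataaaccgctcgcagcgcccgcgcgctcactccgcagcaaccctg

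The labelled cell type was checked against marker lists, whose levels depend on their probes and give no cell shares. The mean of 9 measured fibroblast markers lay between 10.60 and 11.13 on all 24 arrays, above the 95th percentile of negative control probe sets (8.09). The mean of 11 leukocyte markers lay between 5.25 and 5.71 and that of 8 blood endothelial markers between 5.41 and 6.38, both below it. Epithelial markers varied more. The mean of 16 such genes ranged from 5.93 to 7.88 in WT, from 6.31 to 8.12 in ApcKO and from 5.57 to 8.29 in IhhKO_ApcKO, although the gate was Epcam-negative. In sorted bulk RNA a smaller number of cells of a type and less RNA per cell cannot be told apart.

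The immediate early genes were bright in all 3 genotypes. The median measured member had a mean log2 signal of 9.10 over the 24 arrays, and each of the 34 lay above the median gene. The means of 23 of the 34 lay above 8.09, the 95th percentile of 5222 negative control probe sets, which 10.98% of all genes passed. The other 11 (Fosl1, Jund, Maff, Egr3, Nr4a3, Dusp2, Socs3, Ier3, Ier5, Hspb1 and Dnajb1) lay within the range of those controls, so their differences rest on dim signals.

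**Figure D1:**
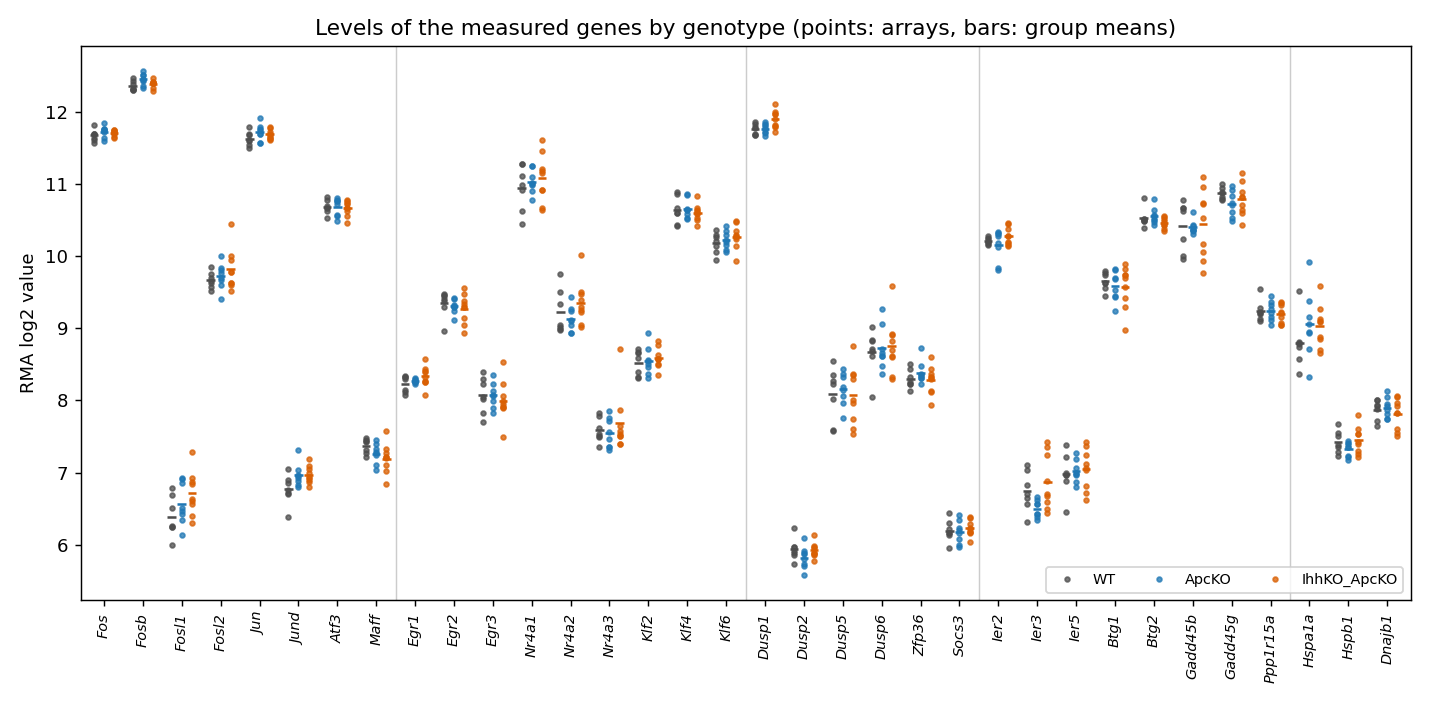
Log2 array signal of the 34 measured genes on each of the 24 arrays, grouped by role, with WT, ApcKO and IhhKO_ApcKO in separate colours, each point 1 array and each bar a group mean. The 3 genotypes overlap for every gene, and Fos, Fosb, Jun and Dusp1 form tight clusters of points while Hspa1a, Gadd45b and Dusp5 spread over more than 1 log2 unit.

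The AP-1 subunits that define an immediate early response were bright and nearly constant. Fos, the partner of Jun in the classical AP-1 dimer, ranged from 11.57 to 11.81 in WT (median 11.69), from 11.59 to 11.84 in ApcKO (median 11.74) and from 11.64 to 11.75 in IhhKO_ApcKO (median 11.70). Fosb, a close relative of Fos, ranged from 12.30 to 12.46 in WT (median 12.31), from 12.33 to 12.56 in ApcKO (median 12.45) and from 12.29 to 12.46 in IhhKO_ApcKO (median 12.40). Jun ranged from 11.49 to 11.78 in WT (median 11.60), from 11.56 to 11.91 in ApcKO (median 11.72) and from 11.60 to 11.79 in IhhKO_ApcKO (median 11.68). The genotypes overlapped in all 3 genes, and WT array A5 and ApcKO array B7 were the highest of their groups for each.

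The spread of these genes within a genotype was among the smallest on the array. The pooled SD within genotypes was 0.0658 for Fos, at percentile 0.730 of the SDs of all genes, 0.0663 for Fosb, at percentile 0.785, and 0.0939 for Jun, at percentile 8.87. Small spreads went with brightness in general: the 316 genes with a mean above 11 had a median SD of 0.0898, with a 5th to 95th percentile range of 0.0555 to 0.207, against a median of 0.149 over all genes. The highest deposited value was 13.71. Whether these probe sets approached a ceiling of the scanner was not tested.

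The other AP-1 genes varied more. Fosl1, a Fos relative linked to growth factor signalling, ranged from 5.997 to 6.78 in WT (median 6.26), from 6.14 to 6.92 in ApcKO (median 6.49) and from 6.30 to 7.28 in IhhKO_ApcKO (median 6.63). Its SD was 0.290, at percentile 93.4 of all genes, and its highest value was on IhhKO_ApcKO array C3. Fosl2 was highest on the same array, at 10.44, and lowest on ApcKO array B4, at 9.41. Atf3, a stress-induced partner of AP-1, ranged from 10.46 to 10.82 over all arrays, and the small Maf factor Maff from 6.84 to 7.57.

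Among the other transcription factors, the orphan nuclear receptors of the Nr4a family separated single arrays. Nr4a1 ranged from 10.44 to 11.27 in WT (median 10.98), from 10.78 to 11.25 in ApcKO (mean 11.03) and from 10.63 to 11.60 in IhhKO_ApcKO (median 11.15). Nr4a2 ranged from 8.97 to 9.75 in WT (median 9.04), from 8.93 to 9.43 in ApcKO (median 9.11) and from 9.01 to 10.02 in IhhKO_ApcKO (median 9.29). Nr4a3 ranged from 7.36 to 7.83 in WT (median 7.54), from 7.31 to 7.85 in ApcKO (median 7.51) and from 7.39 to 8.71 in IhhKO_ApcKO (median 7.54). Array C3 was the highest of the 24 for all 3, and the genotypes overlapped in each.

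The Egr zinc finger factors, which are direct targets of serum response factor, spread less evenly. Egr1 ranged only from 8.23 to 8.31 in ApcKO, against 8.08 to 8.34 in WT and 8.08 to 8.57 in IhhKO_ApcKO. Egr2 ranged from 8.96 to 9.48 in WT, from 9.12 to 9.42 in ApcKO and from 8.94 to 9.55 in IhhKO_ApcKO. Egr3 ranged from 7.70 to 8.39 in WT, from 7.83 to 8.35 in ApcKO and from 7.49 to 8.53 in IhhKO_ApcKO. WT array A6 was the lowest WT array for Egr2 and Egr3, and array C3 was again the highest for Egr3. The Krüppel-like factors Klf2 (8.31 to 8.93), Klf4 (10.42 to 10.88) and Klf6 (9.93 to 10.48), which also respond early to growth and flow signals, had no array apart from the rest.

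The feedback inhibitors held steady and variable genes side by side. Dusp1, a phosphatase that turns off stress-activated MAP kinases, ranged from 11.67 to 11.86 in WT (median 11.77), from 11.66 to 11.85 in ApcKO (median 11.77) and from 11.72 to 12.11 in IhhKO_ApcKO (median 11.90). Dusp5, which acts on ERK in the nucleus, ranged from 7.58 to 8.54 in WT (median 8.23), from 7.76 to 8.44 in ApcKO (median 8.16) and from 7.54 to 8.75 in IhhKO_ApcKO (median 7.996). Dusp6, which acts on ERK in the cytoplasm, ranged from 8.05 to 9.01 in WT (median 8.71), from 8.37 to 9.26 in ApcKO (median 8.63) and from 8.30 to 9.59 in IhhKO_ApcKO (median 8.70). The SDs of Dusp5 (0.346) and Dusp6 (0.335) lay at percentiles 95.9 and 95.6 of all genes, and that of Dusp1 (0.0947) at percentile 9.36. The arrays at their ends were not the same: array C9 had the lowest Dusp5 and the highest Dusp6 of the 24. Zfp36 ranged from 7.93 to 8.72, the cytokine signalling inhibitor Socs3 from 5.95 to 6.44 and the phosphatase Dusp2 from 5.58 to 6.23.

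In the growth arrest and immediate early response group, Gadd45b, a stress sensor that feeds into the p38 and JNK kinases, had the largest spread. It ranged from 9.96 to 10.77 in WT (median 10.62), from 10.30 to 10.61 in ApcKO (median 10.36) and from 9.76 to 11.09 in IhhKO_ApcKO (median 10.52), with array C3 at the top and C9 at the bottom. Ier3, a survival factor induced by NF-kB and ERK signals, ranged from 6.32 to 7.10 in WT (median 6.70), from 6.35 to 6.66 in ApcKO (median 6.50) and from 6.44 to 7.42 in IhhKO_ApcKO (median 6.70). Ier5, a regulator that cooperates with heat shock factor, ranged from 6.46 to 7.38 in WT, from 6.80 to 7.27 in ApcKO and from 6.62 to 7.43 in IhhKO_ApcKO. For Gadd45b, Ier3 and Ier5 the ApcKO arrays spanned the narrowest range of the 3 genotypes, and that range lay inside both others for Gadd45b and Ier5. The antiproliferative genes Btg1 (8.97 to 9.89) and Btg2 (10.34 to 10.80), Gadd45g (10.43 to 11.15), Ier2 (9.80 to 10.45) and Ppp1r15a (9.04 to 9.54), which helps restart translation after stress, completed the group.

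The heat shock group was led in spread by Hspa1a, the inducible Hsp70 chaperone. It ranged from 8.36 to 9.52 in WT (median 8.79), from 8.33 to 9.91 in ApcKO (median 9.01) and from 8.66 to 9.58 in IhhKO_ApcKO (median 9.08). Its SD of 0.376, at percentile 96.8 of all genes, was the largest of the 34. The high arrays were A5 in WT, B4 in ApcKO and C4 in IhhKO_ApcKO, so that 1 array of each genotype stood above 9.5 and the groups overlapped. Its co-chaperone Dnajb1 ranged from 7.50 to 8.13 and the small heat shock protein Hspb1 from 7.17 to 7.80.

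**Figure D2:**
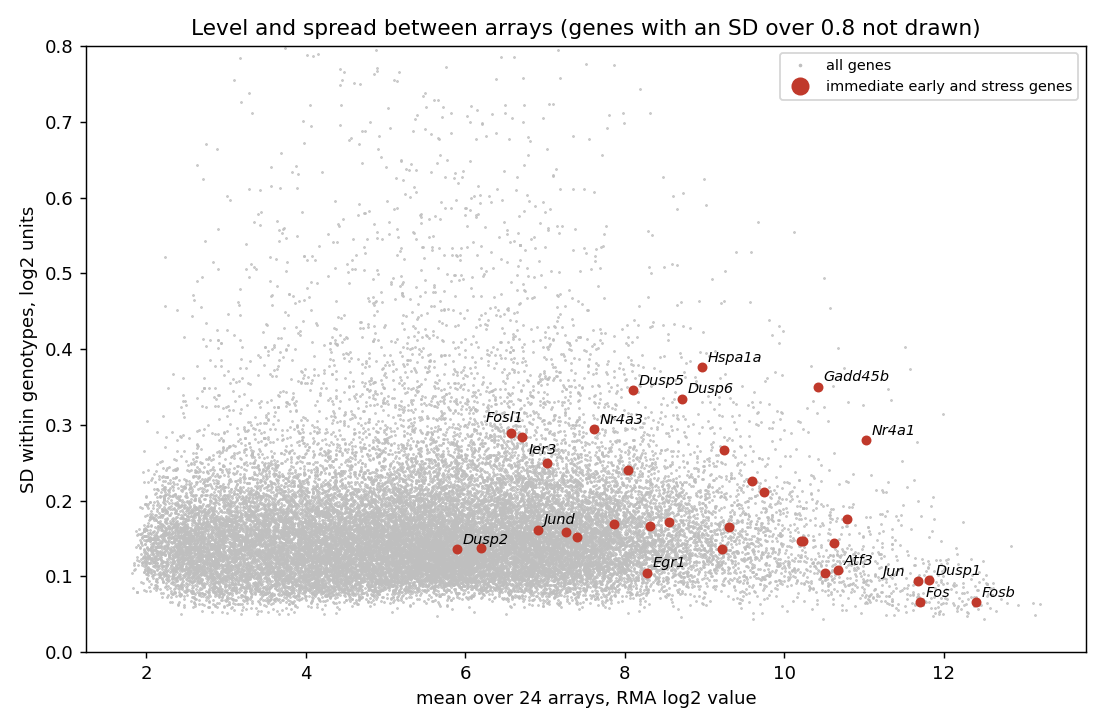
Pooled SD within genotypes against mean log2 signal for all genes in grey, apart from those with an SD over 0.8, and for the 34 measured members in colour. Fos and Fosb lie at the bottom of the cloud with SDs of 0.0658 and 0.0663, while Hspa1a (0.376), Gadd45b (0.350), Dusp5 (0.346) and Dusp6 (0.335) lie in its upper part.

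Over the set, 13 of the 34 genes had an SD above 0.2, as had 21.91% of all genes, and the median SD was 0.166 against 0.149. The IhhKO_ApcKO group had the largest SD of the 3 genotypes for 19 of the 34 (55.9%), against 38.2% of all genes. These counts are descriptions, and equality of spread between genotypes was not tested.

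The first comparison asked whether loss of Apc in the epithelium went with another level of these genes in fibroblasts. None of the 34 differed between ApcKO and WT in limma after Benjamini-Hochberg adjustment over all 30827 genes, where 0.0% of genes passed, and the smallest adjusted p of a member was 0.97. At an unadjusted p below 0.05 there were 2 members, Jund and Fosb, or 5.88% of the set, beside 4.41% of all genes. Jund, an AP-1 subunit often present in resting cells, averaged 6.77 ± 0.209 (SD, n = 7) in WT against 6.96 ± 0.157 (SD, n = 8) after Apc loss, a difference of 0.195 (SE 0.0819; limma adjusted p = 0.97), and all 8 ApcKO arrays lay above the WT mean. Its WT arrays ranged from 6.38 to 7.05 and its ApcKO arrays from 6.80 to 7.31, so the groups overlapped. With the letter of the sample code as a block, a setting described further on, the Jund difference was 0.0359.

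Fosb was 0.0902 higher in ApcKO than in WT (SE 0.0433; limma adjusted p = 0.97), with 7 of 8 ApcKO arrays above the WT mean. Ier3 had the largest difference downward, at -0.24 (SE 0.137; limma adjusted p = 0.97), with all 8 ApcKO arrays below the WT mean, and Hspa1a the largest upward, at 0.26. The next members by p were Jun at 0.0905, Dusp2 at -0.12 (-0.0672 without WT array A2) and Gadd45g at -0.14. None of the 34 had groups that did not overlap, beside 0.00649% of all genes.

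A missed threshold does not show that levels were equal, so the intervals were read as well. The 95% interval of the difference lay within ±0.5 log2 units, or 1.41-fold either way, for 32 of the 34 genes, and the widest bounds over the set were -0.52 and 0.63. The median difference was 0.0235, with 22 of 34 above 0, against a median of -0.0206 and 39.4% above 0 over all genes.

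The second comparison asked what loss of Ihh added on top of Apc loss. Again none of the 34 passed in limma, while 0.0454% of all genes did, and the smallest adjusted p of a member was 0.66. At an unadjusted p below 0.05 there were 2 members, Ier3 and Dusp1, beside 4.94% of all genes. Ier3 averaged 6.87 ± 0.378 (SD, n = 9) after both losses against 6.50 ± 0.118 (SD, n = 8) after Apc loss alone, a difference of 0.370 (SE 0.129; interval 0.105 to 0.634; limma adjusted p = 0.66). Of the 9 IhhKO_ApcKO arrays 7 lay above the ApcKO mean, and arrays C2 (7.42), C5 (7.36) and C3 (7.24) led above the highest ApcKO array (6.66). Arrays C9 (6.44), C6 (6.50) and B9 (6.59) lay among the ApcKO arrays. The Ier3 difference was 0.0665 when the code letter entered as a block.

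Dusp1 averaged 11.90 ± 0.124 (SD, n = 9) after both losses against 11.77 ± 0.0653 (SD, n = 8) after Apc loss alone, a difference of 0.130 (SE 0.0504; limma adjusted p = 0.81), with 8 of 9 arrays above the ApcKO mean. Ier2 (0.131), Hspb1 (0.133) and Nr4a2 (0.220) were next among the members higher in IhhKO_ApcKO, each with an adjusted p near 1 in limma, and Btg2 was the next lower one (-0.0991). Single arrays weighed on these: Nr4a2 was at 0.137 without C3, Ier2 at 0.0814 without B4 and 0.0868 without A9, and Btg2 at -0.0652 without B5. No gene of the set had groups that did not overlap, beside 0.0227% of all genes. The interval lay within ±0.5 for 33 of 34, the exception being Ier3, and the median difference was 0.0315, with 19 of 34 above 0, against 0.0107 and 56.6% above 0 over all genes.

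The third comparison set both losses against WT. It shares its arrays with the first and the second, so the 3 sets of differences are not independent. None of the 34 passed in limma, while 0.0811% of all genes did, and the smallest adjusted p of a member was 0.47. At an unadjusted p below 0.05 there were 4 members (Dusp1, Jund, Fosl1 and Maff), or 11.8% of the set, beside 7.62% of all genes. Dusp1 was 0.142 higher in IhhKO_ApcKO than in WT (SE 0.0523; limma adjusted p = 0.47) and Jund 0.207 higher (SE 0.0797; limma adjusted p = 0.51), with 8 and 9 of the 9 arrays above the WT mean.

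Fosl1 was 0.325 higher (SE 0.136; limma adjusted p = 0.57), at 6.71 ± 0.299 (SD, n = 9) against 6.39 ± 0.279 (SD, n = 7), and Maff 0.175 lower, at 7.19 ± 0.203 against 7.37 ± 0.105. Egr1 (0.103) and Fosl2 (0.146) followed, and Fosl2 was at 0.0671 without array C3. Each of these groups overlapped, as did those of every other member, beside 0.0714% of all genes without overlap. The interval lay within ±0.5 for 32 of 34, and the median difference was 0.0326, with 21 of 34 above 0, against -0.0107 and 44.9% above 0 over all genes.

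The sample codes limit these differences. WT arrays carry the letter A, ApcKO arrays the letter B except A9, and IhhKO_ApcKO arrays the letter C except B9, and what the letter marks is not given in the sources used here. With the letter as a block, a fit in which arrays A9 and B9 alone separate letter from genotype, the median difference became -0.0654, -0.0802 and -0.163 in the 3 comparisons in turn. Between IhhKO_ApcKO and WT, Dusp1 (-0.157), Jund (-0.149) and Egr1 (-0.165) lay on the other side of 0. None of the 34 passed in that fit either.

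**Figure D3:**
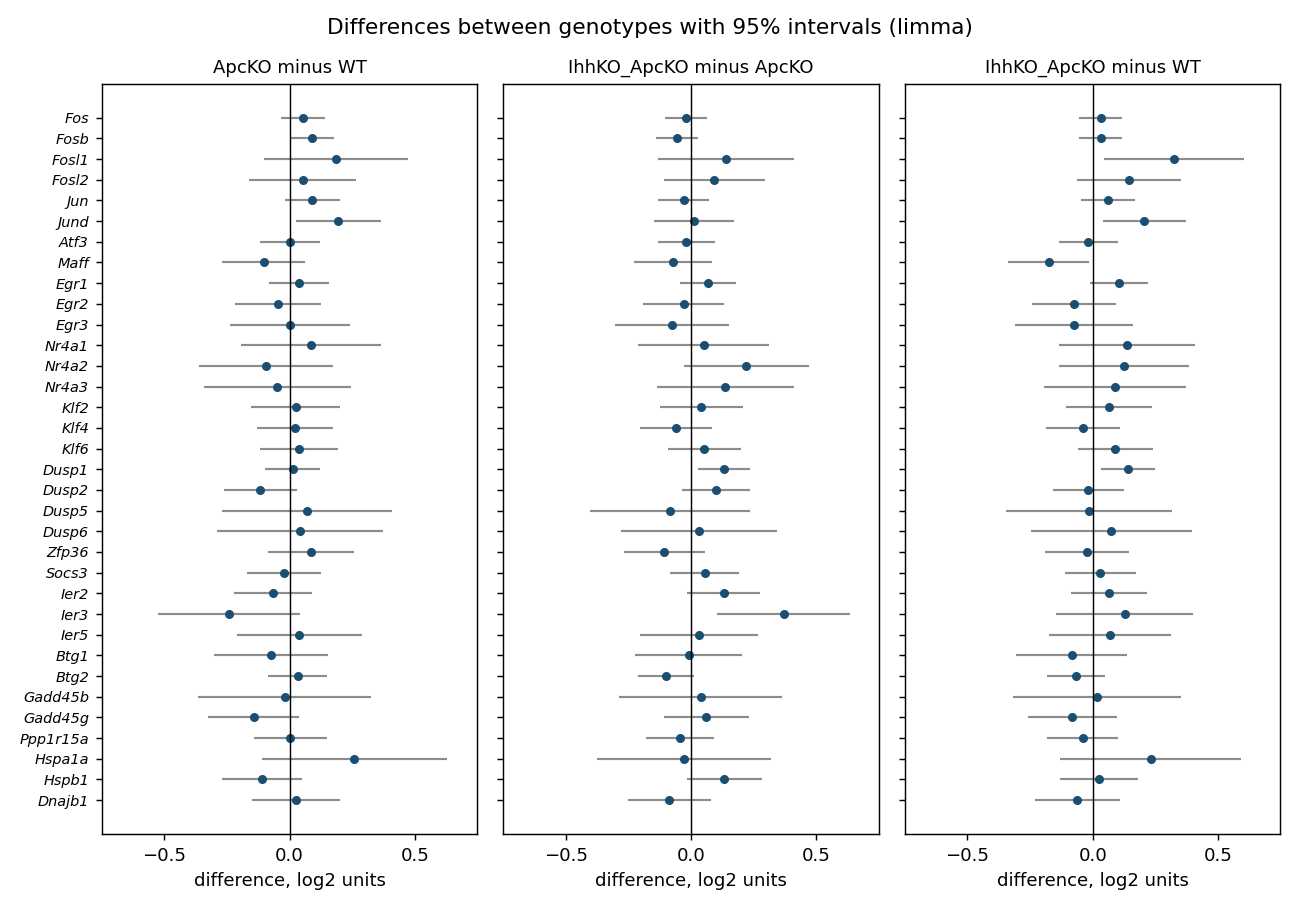
Difference in log2 signal with its 95% interval from limma for each of the 34 genes, in 1 panel for each of the 3 comparisons, with positive values where the group with more genes deleted was higher. Most intervals cross 0, none passes after adjustment, and Ier3 has the largest difference, 0.370 between IhhKO_ApcKO and ApcKO.

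Although the genotypes did not separate the genes, single arrays did. The mean over the 34 genes was 9.03 ± 0.0997 (SD, n = 7) in WT, from 8.88 on A6 to 9.16 on A5, 9.04 ± 0.0442 (SD, n = 8) in ApcKO, from 8.96 on A9 to 9.10 on B7, and 9.07 ± 0.114 (SD, n = 9) in IhhKO_ApcKO, from 8.93 on B9 to 9.25 on C3. The ApcKO arrays were the most alike, and the range of IhhKO_ApcKO spanned theirs. Array C3 was the highest of the 24 arrays for 12 of the 34 genes, whereas C9 was the lowest for 6 and B9 for 5.

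The genes varied together in part. After each gene's genotype means were removed, the mean Pearson correlation over the 561 pairs of members across 24 arrays was 0.164 (median 0.179), against 0.0299 over pairs of all genes. It was above 0 in 385 pairs and above 0.5 in 84, and below -0.5 in 3. The first principal component held 30.8% of the variance of the 34 genes and the second 15.8%. All such correlations share the same arrays and their RNA amplification, and are given as descriptions.

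Shared variation was highest in 1 role and near 0 in another. The mean correlation between genes of a role was 0.406 for the 8 growth arrest and immediate early response genes, 0.378 for the 3 heat shock genes, 0.182 for the 9 other transcription factors, 0.106 for the 8 AP-1 genes and 0.0019 for the 6 feedback inhibitors. The genes that followed the mean of the other 33 most closely were Gadd45b (r = 0.81, rho = 0.78), Ier5 (r = 0.81), Nr4a1 (r = 0.79), Ier3 (r = 0.75), Egr3 (r = 0.74), Dusp5 (r = 0.69) and Egr2 (r = 0.69). Fos (0.36), Fosb (0.22) and Jun (0.38) followed it less over the 24 arrays, and their signal hardly varied. Klf6 (-0.33), Zfp36 (-0.29), Atf3 (-0.27), Dusp6 (-0.25) and Klf2 (-0.21) had negative values, and Dusp1 was near 0 (r = -0.05, rho = 0.0061).

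Within genotypes the relation was uneven. Gadd45b correlated with the mean of the others at 0.83 in WT and 0.88 in IhhKO_ApcKO but at 0.03 in ApcKO, and Nr4a1 at 0.72 and 0.97 but 0.02 in ApcKO. Ier5 kept a high value in each genotype (0.67, 0.79 and 0.92 in WT, ApcKO and IhhKO_ApcKO). Jun (0.74), Fos (0.63) and Fosb (0.525) instead had their highest values within ApcKO. The negative values were uneven too: within ApcKO, Zfp36 (0.44), Atf3 (0.45), Dusp6 (0.35), Klf2 (0.32) and Dusp1 (0.59) were positive and Klf6 was at -0.0069, while all 6 were negative within IhhKO_ApcKO. In ApcKO the mean over the set also had the smallest range.

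The closest pairs included genes of different families and genes of the Nr4a family. Egr3 with Nr4a1 (r = 0.81), Ier3 with Gadd45b (0.81) and Dusp5 with Gadd45b (0.81) were followed by Nr4a2 with Nr4a3 (0.80). Within ApcKO these pairs stood at 0.30, 0.53, -0.09 and 0.62, and within WT and IhhKO_ApcKO at 0.71 or above. Dusp5 and Gadd45b, whose upstream sequences are shown above, were at 0.77 in WT and 0.95 in IhhKO_ApcKO. The 2 ERK phosphatases ran in opposite directions. Dusp5 and Dusp6 correlated at -0.60 (rho = -0.53) over 24 arrays, and at -0.52, -0.59 and -0.66 within WT, ApcKO and IhhKO_ApcKO. The other pairs below -0.5 were Dusp6 with Btg1 (-0.58) and Atf3 with Gadd45b (-0.55).

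**Figure D4:**
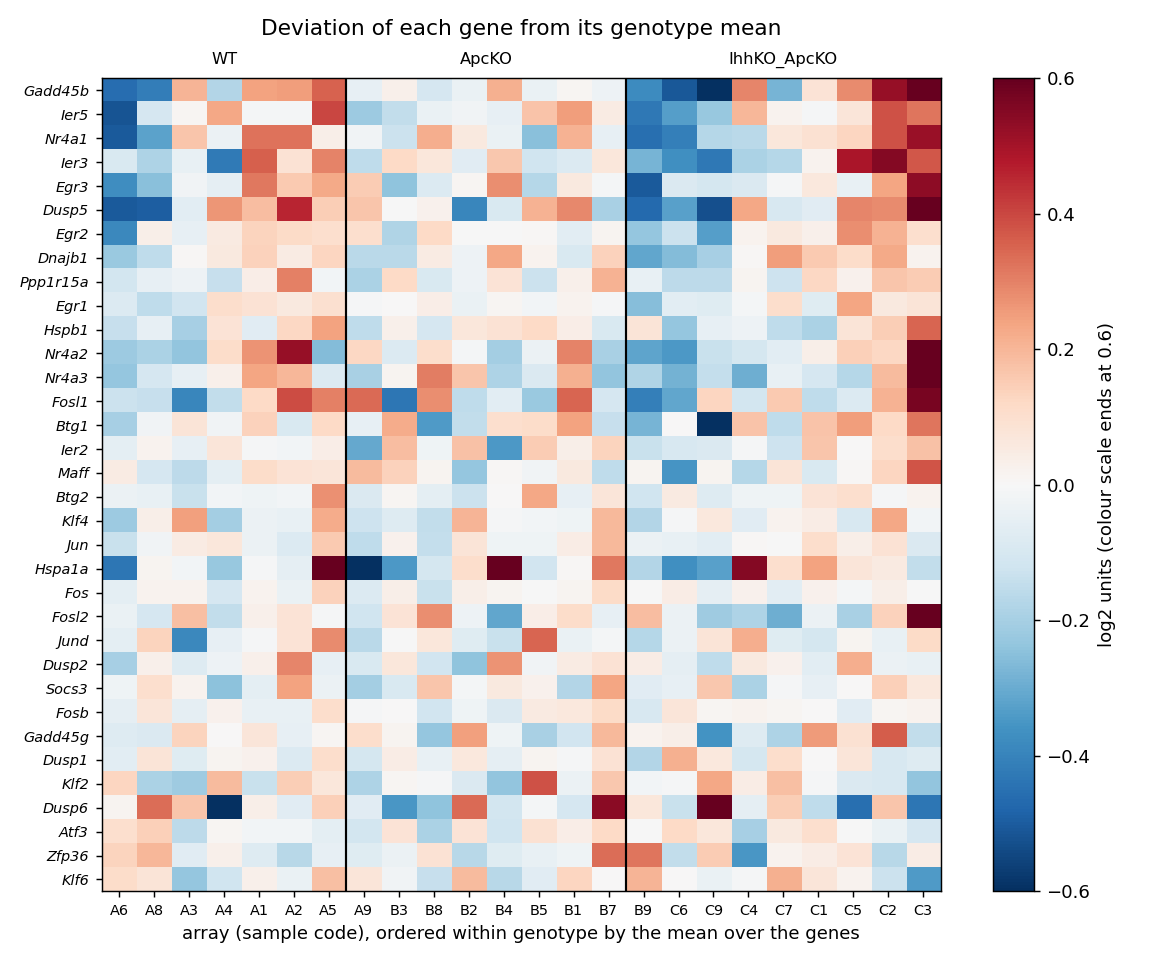
Deviation of each gene (rows) on each array (columns) from its genotype mean, in log2 units, from blue (below) to red (above), with colours ending at 0.6 and arrays ordered within a genotype by the mean over the genes. Arrays C3, C2 and A5 are above their genotype mean for most genes and A6, B9 and C6 below it, while Klf6 and Zfp36 show the reverse on several of these arrays.

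The shared variation went partly with the digit of the sample code. Over the genes brighter than the median gene, arrays of the same digit but different genotype had correlated deviations (median r = 0.18 over 20 pairs, from -0.02 to 0.29). The 171 such pairs of different digits had a median of -0.03, but ranged more widely, from -0.39 to 0.41. Of the 24 arrays, 7 had their highest mean correlation with arrays of their own digit. What the digit marks is not given in the sources used here. Both arrays with digit 6 and all 3 with digit 9 lay below their genotype mean for the set, with average deviations of -0.142 and -0.105, both with digit 8 lay below it too (-0.0362), and all 3 with digits 1 and 5 lay above it.

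With the digit as a replicate block, the mean pairwise correlation of the set fell to 0.0742, against 0.0306 for all genes, and the SD of the set's mean within genotypes fell from 0.0918 to 0.0645. Correlations with the mean of the others were then 0.71 for Gadd45b, 0.77 for Egr3, 0.77 for Fosl1 and 0.64 for Nr4a1, but 0.41 for Egr2, 0.11 for Fos, 0.0288 for Hspa1a and -0.0318 for Klf4. Jun (-0.21), Gadd45g (-0.18) and Ier2 (-0.16) turned negative, as did Klf4. With each array centred on its median gene instead, the mean pairwise correlation was 0.226.

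Genes outside the set that resembled it most were taken by the size of their correlation with the mean of the 34 genes, among the 15379 other genes brighter than the median gene, and so carry no test. Of these, 152 (0.988%) had an r above 0.7 and 28 an r below -0.7. The closest was Plk3, a stress-responsive polo-like kinase (r = 0.88, rho = 0.84, and 0.82 without the 2 arrays farthest from the median). It ranged from 7.70 on A6 to 8.98 on C3. The next were Midn (0.83), Slc66a2 (0.83), the adhesion molecule Icam1 (0.83), the NF-kB regulator Nfkbiz (0.82), Mier3 (0.82), the MAP kinase-interacting kinase Mknk2 (0.81) and the histone demethylase Kdm6b (0.81). Each of the 8 had a lower correlation within ApcKO (0.30 to 0.74) than within IhhKO_ApcKO (0.83 to 0.95). Plk3 remained at 0.82 with the digit as a block.

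Other genes of the same pathways were read from fixed lists. The mean of 37 other early response genes correlated with the mean of the set at 0.83 (rho = 0.78; 0.75 without the 2 farthest arrays), and 34 of the 37 had a positive r. The value was 0.87 in WT, 0.58 in ApcKO and 0.85 in IhhKO_ApcKO. Plk3 and Nfkbiz, named above among the genes most like the set, belong to this list, so the results overlap. The mean of 17 measured signalling kinases and factors upstream, such as Srf and the MAP kinases, correlated at 0.74, with 16 of 17 positive, and that of 16 other chaperones and oxidative stress genes at 0.72, with 14 of 16 positive.

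None of the genes on these 3 lists passed after adjustment in any comparison in limma. At an unadjusted p below 0.05 there were 1, 1 and 1 genes of the 37, 17 and 16 between ApcKO and WT, 3, 0 and 2 between IhhKO_ApcKO and ApcKO, and 3, 1 and 4 between IhhKO_ApcKO and WT. Over all genes the shares at that level were 4.41%, 4.94% and 7.62% in the 3 comparisons. Of the early response list, Ptgs2, the inducible prostaglandin synthase, was 0.291 lower in ApcKO than in WT (limma adjusted p = 0.97), and Spry2, a brake on receptor tyrosine kinases, 0.282 higher in IhhKO_ApcKO than in ApcKO (limma adjusted p = 0.54). The metallothionein Mt2, induced by metals and stress, was 0.318 higher in IhhKO_ApcKO than in ApcKO (limma adjusted p = 0.23) and 0.330 higher than in WT (limma adjusted p = 0.16), with all 9 arrays above the mean of either group.

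Markers of other cells and measures of the arrays moved with the set as follows. The epithelial mean correlated with the mean of the set at -0.46 (rho = -0.40; -0.26 without the 2 farthest arrays), at -0.11 in WT, 0.10 in ApcKO and -0.83 in IhhKO_ApcKO, and none of its 16 genes had a positive r. On C3, the array with the highest mean of the set, the epithelial mean was 5.57, the lowest of the 24, and on C9 it was 8.29, the highest. With the epithelial mean as a covariate the mean pairwise correlation of the set was 0.158, close to the 0.164 without it, and with the digit as a block the epithelial correlation was -0.07. The negative relation was not particular to epithelial markers. Means for interstitial cells of Cajal, mesothelium, and enteric glia and neurons correlated at -0.48, -0.37 and -0.30. Within IhhKO_ApcKO they stood at -0.86, -0.54 and -0.57. Leukocyte and blood endothelial means were at -0.11 and -0.08, and within IhhKO_ApcKO at -0.40 and -0.54. The smooth muscle mean was at 0.20. The epithelial mean lay above 8.09 on B8 (8.12) and C9 (8.29). The other list means named here lay below 8.09 on all arrays, within the range of the negative controls.

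**Figure D5:**
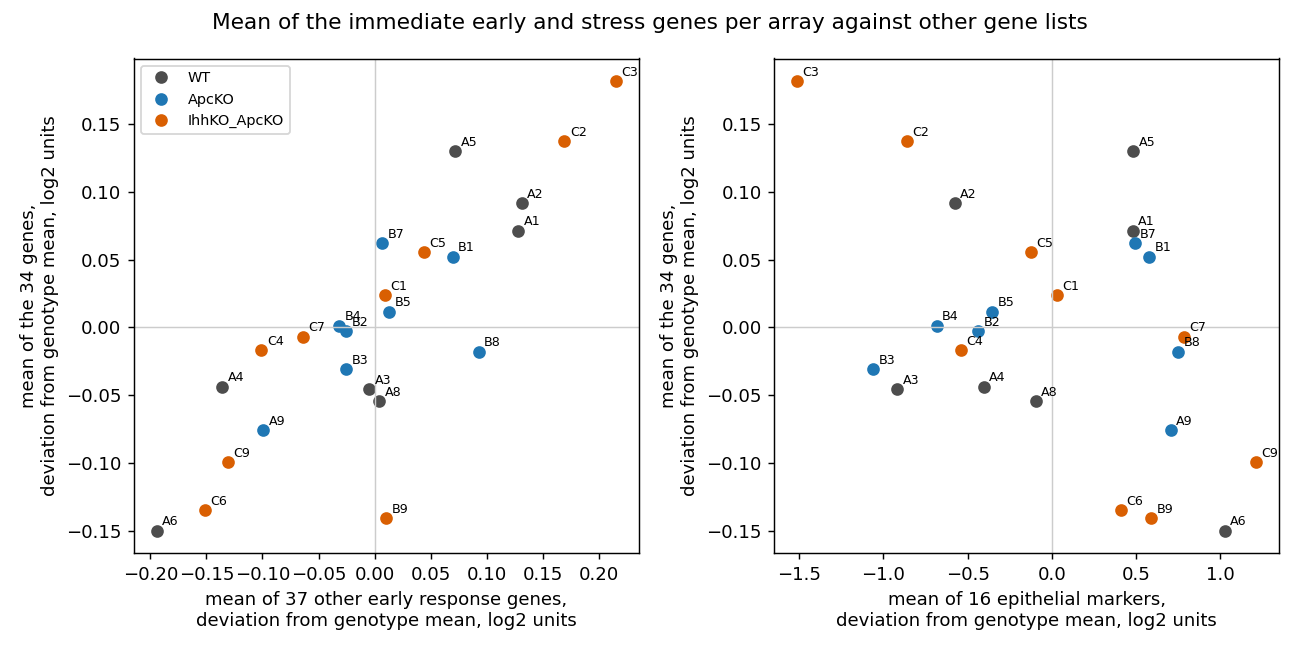
Mean over the 34 genes on each array (vertical axis) against the mean of 37 other early response genes (left) and of 16 epithelial markers (right), all as deviations from the genotype mean in log2 units, with 1 labelled point per array coloured by genotype. Points rise along the diagonal on the left (r = 0.83), with B9 apart below it, and on the right the IhhKO_ApcKO arrays fall from C3 to C9 (r = -0.83 within them) while WT and ApcKO arrays show no such slope (-0.11 and 0.10).

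The pericyte mean (6 genes) correlated at 0.50, and at 0.45 with the digit as a block. The fibroblast mean correlated at -0.13 over all arrays, at 0.14 in WT, 0.54 in ApcKO and -0.35 in IhhKO_ApcKO, and at -0.54 with the digit as a block. The mean of 4 lymphatic endothelial markers correlated at 0.23, and at 0.77 with the digit as a block. The pericyte and lymphatic means lay below 8.09 on all arrays, within the range of the negative controls, so their correlations rest on dim signals. The median r of the single pericyte genes was 0.184. The contrast of positive over negative control probe sets, a measure of labelling and hybridisation, correlated at 0.52 (rho = 0.57; 0.45 without the 2 farthest arrays), and at 0.60, 0.44 and 0.56 within the 3 genotypes. The median of the antigenomic background probes correlated at -0.20. The part of these measures in the shared variation of the immediate early genes was not tested.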

How the data were processed

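RNA from sorted colon fibroblasts was measured on 24 Affymetrix GeneChip Mouse Transcriptome Array 1.0 arrays. The authors deposited 1 table of log2 signals for 72688 probe sets, made with RMA (background correction, quantile normalization and probe set summary) per the submitters' processing notes; the sources used here name neither a software version nor a genome build. RMA sets the arrays to a common distribution, so a shift of all genes would not be seen. All 24 value columns carried a sample's name, and 0 columns were left unassigned.

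Of 65956 transcript clusters, 31388 were annotated to 1 gene, 1362 to several and 33206 were unnamed here; 6732 control probe sets were set aside. Annotation symbols were updated through RefSeq for 827 clusters, giving 30827 genes, each read from its brightest probe set (423 genes had several). Genotypes were taken from the sample titles. Limma (version 3.58.1, R 4.3.3) fitted the 3 group means on all 24 arrays, with Benjamini-Hochberg adjustment over all genes and a threshold of 0.05; it was tested on artificial data first. Correlations used values minus genotype means. Arrays have no read depth, and their number limits the precision.

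Genes, lists and tests were chosen with earlier results of these data known. All listed genes could be named; full statistics were given for the 6 with the smallest p per comparison, for the 8 most alike genes and for up to 2 genes of a list. Replicate numbers were taken from the codes. Same-digit arrays deviated together in part, with 15 of 20 pairs correlated above 0.1, as were 46 of 171 pairs of different digits. Since pairing was taken to need every pair above 0.1 or a label, the digit was used as an alternative block and not in the fit itself. Alternatives were centring on the median gene, brighter genes only, the mean of all probe sets, robust and trended variances, array weights, only the groups compared, code letter, code digit or epithelial mean in the model, and leaving out each array.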

Additional observations from a re-analysis of the deposited data

Results flagged for a closer look

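Single arrays stood apart from the rest of their genotype in 11 of the 120 sets of values examined (each gene, role mean and overall mean in each genotype), where chance gives about 1 in 20. The sets share genes and arrays, so this count is a description, and an excess over that rate was not tested. In WT these were the low Egr2 on A6 (8.96), the low Dusp6 on A4 (8.05), the high Btg2 (10.80) and Hspa1a (9.52) on A5 and the high Ppp1r15a on A2 (9.54). In ApcKO they were the high Jund on B5 (7.31), the high Gadd45b on B4 (10.61) and the high mean of the 6 feedback inhibitors on B7 (8.35). In IhhKO_ApcKO they were the high Nr4a2 (10.02) and Nr4a3 (8.71) on C3 and the high Dusp6 on C9 (9.59). The nearest other array was at 9.50 for Nr4a2 and 7.87 for Nr4a3.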

How the results depend on the processing

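None of the 34 genes passed the threshold in limma in any of the 3 comparisons under the 9 other settings or without any 1 array (15, 17 and 16 fits). The code letter as a block turned the direction of Jun between ApcKO and WT (-0.0668), of Dusp1 (-0.0617), Ier2 (-0.0501) and Nr4a2 (-0.0738) between IhhKO_ApcKO and ApcKO, and of Dusp1 (-0.157), Jund (-0.149), Maff (0.0512) and Egr1 (-0.165) between IhhKO_ApcKO and WT. It kept the sign but shrank Ier3 between IhhKO_ApcKO and ApcKO (0.0665), Jund (0.0359) and Gadd45g (-0.0340) between ApcKO and WT. It moved the median difference of the genes to -0.0654, -0.0802 and -0.163 in the 3 comparisons; by construction that fit rests on arrays A9 and B9. Leaving out 1 array gave median differences of -0.0123 to 0.0441, -0.0077 to 0.0448 and 0.0229 to 0.0679, mean pairwise correlations of 0.146 to 0.173 and SDs of the mean of 0.0836 to 0.0941. Centring on the median gene gave a mean pairwise correlation of 0.226. The code digit as a replicate block gave 0.0742, and an SD of the mean of 0.0645; it moved none of the 34 genes across the threshold. The cause was not tested.

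Counts over all genes moved more: 0 genes passed between ApcKO and WT but 113 with the letter block; 14 between IhhKO_ApcKO and ApcKO but 8 with centring, 23 with brighter genes only, 65 with array weights and 53 with the letter block; 25 between IhhKO_ApcKO and WT but 16 with centring, 45 with array weights, 7 with only those groups, 84 with the letter block and 14 with the digit block. Signals within the range of the negative controls (11 of 34 genes) limit small differences.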
